A study of Homo sapiens with 6 samples.

Results

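This account covers the histone genes of the clusters in PC-3, a cell line from human prostate cancer. These clusters hold the genes that encode the bulk histone proteins of chromatin. Members were all rows of the deposited table whose symbol begins with HIST1H, HIST2H, HIST3H or HIST4H, which gave 58 of 18780 gene symbols. By histone type there were 6 genes of H1, 14 of H2A, 18 of H2B, 11 of H3 and 9 of H4. By cluster, 47 belonged to HIST1, 7 to HIST2, 3 to HIST3 and 1 to HIST4. The choice used symbols alone and no measured value, and whether each member encodes a histone protein was not checked.

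RNA was sequenced from cells given trans-Gnetin H (TGH), a resveratrol trimer, at 2.5 µM for 24 h (n = 3), or DMSO, the vehicle, for the same time (n = 3). All cells grew in DMEM/F12 with 10% FBS, and no group carried any other agent or genetic change by the labels. The title frames the study as pharmacological glucose deprivation. The labels do not say whether replicates were separate cultures, so p-values measure the spread between these libraries, which may be technical.

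Cluster histone genes are transcribed mainly while a cell copies its DNA, when new chromatin must be packed. H2A, H2B, H3 and H4 form the nucleosome core, and H1 binds the linker DNA between nucleosomes. Most of their mRNAs have no introns and end in a conserved stem-loop instead of a poly(A) tail. The stem-loop binding protein SLBP holds that end, and the mRNAs are degraded when replication stops. Some members can also be made as longer, polyadenylated transcripts, which are known from cells that have left the cycle.

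The stem-loop is shown here because it sets these mRNAs apart and because the near-identity of the copies bears on how reads were assigned. All 58 symbols were found among the GENCODE release 29 transcripts. The pattern searched, on the transcript's own strand, was GG, 2 bases of any kind, CT, 1 of any kind, TT, 1 of any kind, AG, 2 of any kind and CC. It occurred in the models of 25 members (43.1%) and in 0.315% of all genes. Many members' models stop at the coding sequence, so the absence of these letters says nothing of the mRNA. In the following lines capitals mark the matched letters, and lower case the bases on either side.

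HIST1H2AC: ccaaaGGCTCTTTTCAGAGCCccccta
HIST1H2BC: ccaaaGGCTCTTTTAAGAGCCacccag
HIST1H2BG: tcaaaGGCTCTTTTCAGAGCCactcaa
HIST3H2A: ataaaGGCTCTTTTCAGAGCCacctac
HIST1H4H: ccaaaGGCCCTTTTCAGGGCCgcccac

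The promoters of 4 members that differed between groups are shown for the motifs that members hold in common. For 51 of the 58 members RefSeq (GRCh38.p14) gives a transcription start, and the 250 bases before it were searched on both strands for 3 motifs. CCAAT was present in 45 of 51 members (88.2%, against 32.0% of all 35116 promoters). TATAAA was present in 34 (66.7%, against 10.7%). The octamer ATTTGCAT was present in 23 (45.1%, against 1.63%), and these were 12 of 16 H2B genes, 10 of 13 H2A genes, 1 of 9 H3 genes, and 0 of 6 H1 and 0 of 7 H4 genes. A match is a description of letters and not a measured binding site. Neighbouring H2A and H2B genes that point away from each other share much of this window, so their matches are not independent. The H3 match is HIST1H3D, whose window is the same as that of HIST1H2AD. Capitals below mark every match of the 3 motifs on either strand. The windows are on GRCh38.p14 and not on the hg19 build of the deposited values, at chr6:26156079-26156328 (plus strand) for HIST1H1E, chr6:26123922-26124171 (plus strand) for HIST1H2AC, chr6:27146859-27147108 (minus strand) for HIST1H2BK and chr6:27838319-27838568 (plus strand) for HIST1H2BN. HIST1H2BC lies on the other strand of the HIST1H2AC window.

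HIST1H1E: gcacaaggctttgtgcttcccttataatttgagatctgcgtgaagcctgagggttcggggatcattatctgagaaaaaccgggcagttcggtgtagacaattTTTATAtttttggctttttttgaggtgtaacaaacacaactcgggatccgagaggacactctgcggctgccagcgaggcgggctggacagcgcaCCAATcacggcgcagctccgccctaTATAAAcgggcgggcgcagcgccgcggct
HIST1H2AC: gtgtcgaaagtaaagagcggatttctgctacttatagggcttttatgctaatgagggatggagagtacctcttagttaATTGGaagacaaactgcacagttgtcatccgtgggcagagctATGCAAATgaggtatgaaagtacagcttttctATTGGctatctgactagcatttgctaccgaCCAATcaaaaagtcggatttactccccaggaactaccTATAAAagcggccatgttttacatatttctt
HIST1H2BK: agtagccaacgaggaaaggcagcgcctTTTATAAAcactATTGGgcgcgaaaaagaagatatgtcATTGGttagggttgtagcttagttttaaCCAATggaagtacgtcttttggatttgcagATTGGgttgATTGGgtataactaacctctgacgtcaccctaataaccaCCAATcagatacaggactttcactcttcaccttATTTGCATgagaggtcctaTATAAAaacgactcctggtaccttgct
HIST1H2BN: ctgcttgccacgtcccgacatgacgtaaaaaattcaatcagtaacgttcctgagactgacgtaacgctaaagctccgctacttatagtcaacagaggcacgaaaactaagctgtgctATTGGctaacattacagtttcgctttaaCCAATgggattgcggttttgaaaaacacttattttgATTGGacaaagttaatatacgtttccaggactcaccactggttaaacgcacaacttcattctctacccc

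Total RNA was depleted of ribosomal RNA rather than selected for poly(A) tails, so both forms of histone mRNA could be read. How fully the stem-loop form was read was not measured. The values are log2(TPM + 1) as deposited, where TPM is a read abundance scaled by transcript length and library total, and levels below are given as TPM after undoing the logarithm. Depth per library is unknown, since TPM keeps no read total. DMSO replicates 1 and 2 list 3074 and 3185 genes at exactly 0, and the other 4 libraries 1342 to 1530. Of the 58 members, 2 to 8 were at 0 in a library, the most in DMSO replicate 2. The epithelial markers of the cell line were present, with 5 of 5 averaging 1 TPM or more, while 0 of 5 immune, 0 of 4 endothelial and 1 of 6 fibroblast markers (COL1A1) reached that level. Read sharing was gauged by the share of a member's 50-base stretches found in no other gene's GENCODE transcripts, on either strand. Its median was 98.8% over the 58 members, and 11 members were under 50%, so that reads of those could be counted for another gene. Neither read length nor counting rule is given in the sources used here.

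The summed TPM of the listed cluster histones was lower with TGH. Summed over the 58 members, the DMSO libraries in the order of their numbers held 531, 552 and 523 TPM, and the TGH libraries 410, 402 and 410 TPM. The means were 535 ± 14.6 in DMSO and 407 ± 4.67 with TGH (SD, n = 3 each), a ratio of 0.761. The groups did not overlap. Against DMSO replicate 3 alone, the control library without the many zeros, the ratio was 0.779. The sum is about 0.1% of the listed TPM, from 0.103% to 0.110% in DMSO and from 0.0790% to 0.0796% with TGH. A sum depends less than a single copy on how reads were divided among near-identical members. It still moves where the copies differ in length or share reads with a gene outside the sum. Some genes of the clusters have no value and are outside it. Among them are HIST2H2AA3, which shares 30.5% of the 50-base stretches of HIST2H2AC, and HIST1H4K, which shares 81.2% of those of HIST1H4J. It is a description without a test. In these bulk samples fewer cells in S phase and less histone mRNA per cell cannot be told apart. Nor do the values separate stem-loop from polyadenylated mRNA, and 6 genes with known polyadenylated transcripts held 70.0% of the sum in DMSO. The sum is therefore not a measure of S phase histone mRNA alone.

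The sum rested mostly on few genes. HIST1H2BK, HIST1H1C, HIST1H2AC, HIST1H2BD and HIST3H2A, the 5 members with the highest mean, made up 69.7% of the sum in DMSO and 70.0% with TGH. Without these 5 the other 53 members summed to 162 ± 7.28 TPM in DMSO and 122 ± 2.07 TPM with TGH. That is a ratio of 0.754, and the ratio of the 5 was 0.764, so that the lower sum was seen in the abundant members and in the remainder alike.

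By type, the ratio was lowest for H1, and the order of the other types was not stable. Against DMSO replicate 3 alone it was 0.830 for H2A, 0.840 for H3 and 0.708 for H4, and without DMSO replicate 3 it was 0.921 for H4. H1 summed to 92.6 ± 0.207 TPM in DMSO and 61.7 ± 0.494 with TGH (ratio 0.666). H2B went from 283 ± 19.8 to 212 ± 6.43 (0.749) and H3 from 23.6 ± 3.07 to 17.9 ± 1.05 (0.758). H2A went from 112 ± 3.52 to 96.0 ± 3.68 (0.854) and H4 from 23.7 ± 4.66 to 19.8 ± 1.94 (0.837). The groups were apart for H1, H2A, H2B and H3 and overlapped for H4. Without HIST1H2AC the other 13 H2A genes summed to 49.7 ± 4.10 TPM in DMSO and 48.8 ± 2.74 TPM with TGH (0.982), with overlapping groups. That remainder holds members that went either way, HIST2H2AC lower and HIST3H2A with a higher mean.

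**Figure D1:**
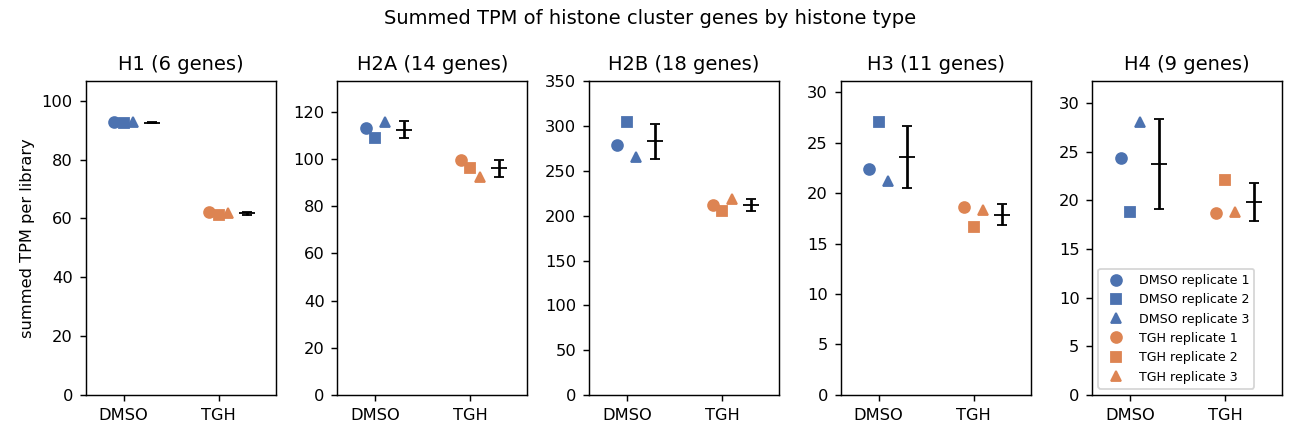
Summed TPM of the members of each histone type (y axis, starting at 0, a scale for each panel) in each DMSO and TGH library, with the group mean and SD at the right of each group. All TGH libraries lie below all DMSO libraries for H1, H2A, H2B and H3, and the groups overlap for H4.

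For the test by gene, limma was fitted to the genes that averaged 1 TPM or more across all 6 libraries, and p-values were adjusted by Benjamini-Hochberg over these 12018 genes. A gene is called at an adjusted p under 0.05. Of the members 37 were kept and 21 fell under the filter. Of the 37, 12 were called lower (32.4%, against 26.3% of all genes kept), 3 were called higher (8.11%, against 28.9%) and 22 were not called. The share called lower is near that of all genes, and the share called in either direction is below it (40.5%, against 55.2%). The median difference of the 37 was -0.27 on the log2(TPM + 1) scale, against 0.02 for all genes kept. Of the kept members 6 reached 1 TPM on average only in DMSO and 1 only with TGH. These 7 passed through the group in which they were higher, so these counts describe the kept members and support nothing about the 58. Groups did not overlap, with TGH lower, for 13 of the 37 (all genes 30.8%), and with TGH higher for 4 (all genes 33.6%).

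**Figure D2:**
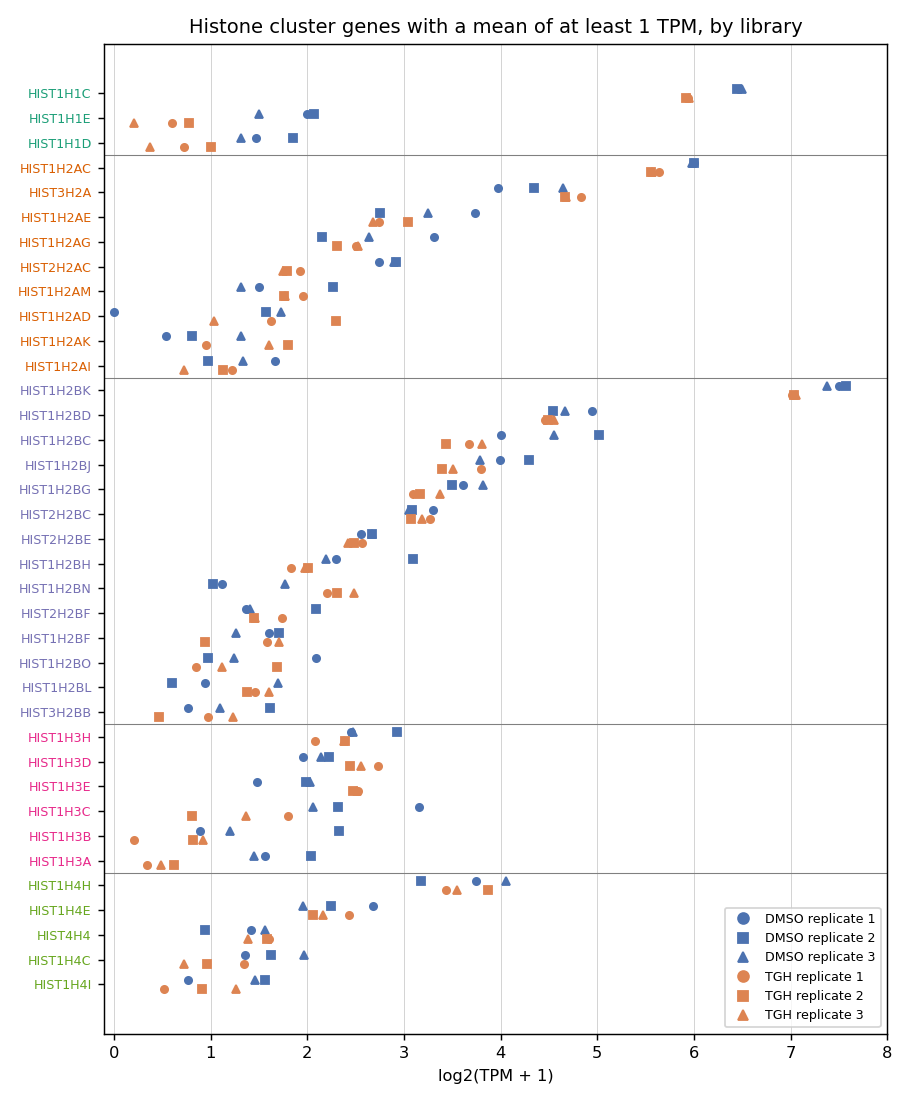
Values of the 37 members that averaged 1 TPM or more, as log2(TPM + 1) on the x axis, in each of the 6 libraries. Members are grouped by type (label colour) and sorted by mean level. HIST1H2BK is the highest, and HIST1H2AD is near 0 in DMSO replicate 1.

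Among linker histones, all 3 kept members fell (100%, against 26.3% of all genes kept). HIST1H1C encodes H1.2, a subtype made outside S phase as well, and held 94.5% of the H1 sum in DMSO. It had 87.1, 86.2 and 89.1 TPM in DMSO and 60.5, 59.4 and 60.97 TPM with TGH. The libraries of each group lay close together and far from those of the other, with a difference of -0.53 (SE 0.024, limma adjusted p = 1.2e-05). HIST1H1E, which encodes H1.4, had 2.99, 3.21 and 1.83 TPM in DMSO and 0.521, 0.718 and 0.157 TPM with TGH. Every TGH library was below every DMSO library, and the mean was 5.76-fold lower in TPM (log2 difference -1.33, SE 0.201, adjusted p = 0.0016). HIST1H1D, which encodes H1.3, had 1.76, 2.60 and 1.49 TPM in DMSO and 0.648, 0.998 and 0.296 TPM with TGH, again without overlap (-0.85, SE 0.197, adjusted p = 0.0105). Its call was lost against DMSO replicate 3 alone (adjusted p = 0.0921). HIST1H1D and HIST1H1E passed the filter only through DMSO, so the count of 3 supports nothing about the type. The H1 genes share no 50-base stretch with another gene, so sharing of exact reads of that length does not touch them. The other H1 members lay under the filter, with means of 0.0802 TPM for HIST1H1A, 0.171 TPM for HIST1H1B and 0.129 TPM for HIST1H1T, a testis form.

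Among H2A genes 2 of 9 kept members fell (22.2%, near the 26.3% of all genes kept) and 7 were not called. HIST1H2AC, the most abundant H2A gene, had 63.2, 63.1 and 61.9 TPM in DMSO and 48.9, 46.1 and 46.5 TPM with TGH (-0.40, SE 0.030, adjusted p = 7.4e-05). HIST2H2AC had 5.69, 6.58 and 6.43 TPM in DMSO and 2.79, 2.45 and 2.36 TPM with TGH, 2.46-fold lower in mean TPM (-1.03, SE 0.072, adjusted p = 5.9e-05). Neither gene's groups overlapped. HIST2H2AC shares 30.5% of its 50-base stretches with HIST2H2AA3, a near-identical gene of the same cluster, so its level is uncertain.

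HIST3H2A, the second H2A gene by level, went the other way without passing the test. It had 14.7, 19.3 and 24.0 TPM in DMSO and 27.5, 24.5 and 24.6 TPM with TGH. The groups just did not overlap, since DMSO replicate 3 reached nearly the TGH values (0.41, SE 0.158, adjusted p = 0.0648). It was called higher without DMSO replicate 3 (0.57, adjusted p = 0.0103). HIST1H2AD shows how unsure single copies can be. It had 3.0e-06, 1.98 and 2.32 TPM in DMSO and 2.08, 3.93 and 1.05 TPM with TGH, and 98.0% of its stretches also occur in the transcript AL031777.3. The other uncalled H2A members lay between -0.43 for HIST1H2AE and 0.57 for HIST1H2AK.

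Among H2B genes 4 of 14 kept members fell (28.6%, near the 26.3% of all genes kept), 1 rose (7.14%, against 28.9%) and 9 were not called. HIST1H2BK was the most abundant of all members, with 180, 190 and 165 TPM in DMSO and 128, 130 and 132 TPM with TGH. The TGH libraries lay close together and under all DMSO libraries (-0.45, SE 0.050, adjusted p = 0.00043). Its GENCODE model holds the coding sequence alone, and 61.4% of its stretches also occur in H2BFS, a near copy on another chromosome, which has no value in the table used here. HIST1H2BG had 11.2, 10.3 and 13.1 TPM in DMSO and 7.55, 7.96 and 9.34 TPM with TGH (-0.43, SE 0.102, adjusted p = 0.0107), and 100% of its stretches are its own.

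HIST1H2BC and HIST1H2BJ fell with a wider spread. HIST1H2BC, which shares its promoter with HIST1H2AC, had 15.0, 31.4 and 22.5 TPM in DMSO and 11.8, 9.84 and 13.0 TPM with TGH (-0.89, SE 0.244, adjusted p = 0.0201). The DMSO libraries were spread widely, though all lay above those with TGH, and the call was lost without DMSO replicate 3 (adjusted p = 0.0547), without TGH replicate 1 (0.0577) and without TGH replicate 2 (0.0695). HIST1H2BJ had 14.9, 18.5 and 12.8 TPM in DMSO and 12.9, 9.51 and 10.4 TPM with TGH, and its groups overlapped (-0.46, SE 0.149, adjusted p = 0.0379). Its call was lost in 7 of 17 alternative fits, with an adjusted p of up to 0.296, among them those without DMSO replicate 1, DMSO replicate 2, TGH replicate 2 or TGH replicate 3.

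HIST1H2BN was the one H2B gene that rose. It had 1.17, 1.04 and 2.40 TPM in DMSO and 3.62, 3.95 and 4.59 TPM with TGH, 2.63-fold higher in mean TPM (1.03, SE 0.197, adjusted p = 0.0046). Every TGH library was above every DMSO library. Its divergent neighbour HIST1H2AK, which has 100% of its stretches within HIST1H2BN transcripts on one strand or the other, had 0.449, 0.746 and 1.49 TPM in DMSO and 0.934, 2.47 and 2.04 TPM with TGH (0.57, SE 0.273, adjusted p = 0.122). Without strand, no read of HIST1H2AK can be told from one of HIST1H2BN, while 94.9% of the stretches of HIST1H2BN are its own. The kit keeps strand, but whether the counting used it is not stated.

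Among H3 genes 2 of 6 kept members fell (33.3%, against 26.3% of all genes kept), 2 rose (33.3%, against 28.9%) and 2 were not called. HIST1H3A had 1.95, 3.12 and 1.72 TPM in DMSO and 0.265, 0.536 and 0.403 TPM with TGH, 5.64-fold lower in mean TPM (-1.20, SE 0.168, adjusted p = 0.0011). The groups lay well apart, and the gene passed the filter only through DMSO. HIST1H3C had 7.88, 3.99 and 3.16 TPM in DMSO and 2.48, 0.745 and 1.57 TPM with TGH (-1.19, SE 0.343, adjusted p = 0.0242). The call of HIST1H3C held in 12 of 16 alternative fits. It was lost with no filter, against DMSO replicate 3 alone (-0.73), without TGH replicate 2 (adjusted p = 0.0729) and without TGH replicate 3 (0.0623). HIST1H3A, HIST1H3B and HIST1H3C have 100% of their stretches to themselves.

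HIST1H3E and HIST1H3D rose. HIST1H3E had 1.78, 2.96 and 3.08 TPM in DMSO and 4.74, 4.54 and 4.71 TPM with TGH (0.67, SE 0.145, adjusted p = 0.0076). The 3 TGH libraries agreed closely and lay above all DMSO libraries. HIST1H3D had 2.89, 3.67 and 3.41 TPM in DMSO and 5.65, 4.42 and 4.86 TPM with TGH (0.47, SE 0.099, adjusted p = 0.0070). It has 0% of its stretches to itself, since its whole model is also part of AL031777.3, the same transcript that holds most of HIST1H2AD, so the rise cannot be assigned to this gene alone. HIST1H3H, the highest H3 member, had 4.47, 6.61 and 4.57 TPM in DMSO and 3.24, 4.23 and 4.22 TPM with TGH. Its groups did not overlap, but the test was not passed (-0.34, SE 0.149, adjusted p = 0.0966).

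Among H4 genes 1 of 5 kept members fell and 4 were not called. HIST1H4C had 1.57, 2.08 and 2.91 TPM in DMSO and 1.54, 0.950 and 0.657 TPM with TGH (-0.64, SE 0.203, adjusted p = 0.0341), with the nearest libraries of the groups almost equal. The call was lost in 6 of 16 alternative fits, with an adjusted p of up to 0.103, among them those without DMSO replicate 2, DMSO replicate 3, TGH replicate 2 or TGH replicate 3. HIST1H4H, which held 50.6% of the H4 sum in DMSO, had 12.4, 8.01 and 15.6 TPM in DMSO and 9.79, 13.6 and 10.7 TPM with TGH. Its groups overlapped throughout (-0.04, SE 0.226, adjusted p = 0.892).

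**Figure D3:**
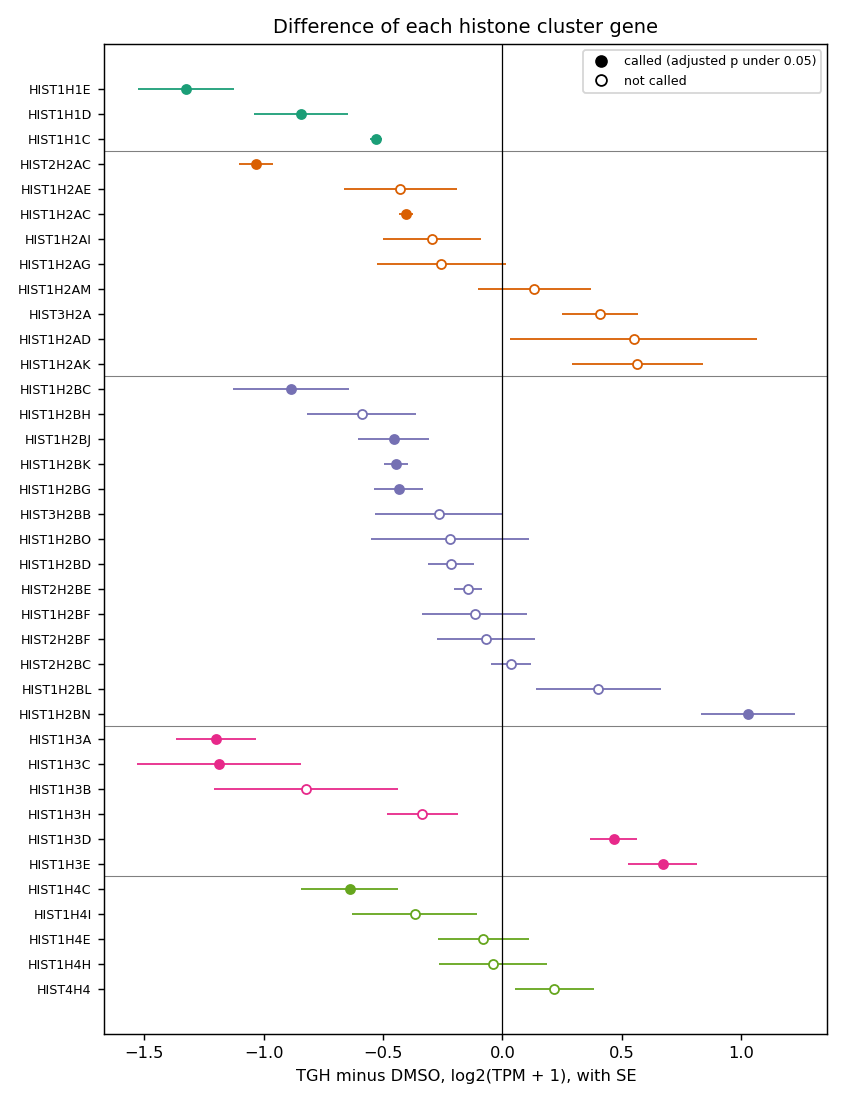
Difference between TGH and DMSO (x axis, log2(TPM + 1), points with SE from limma) for the 37 kept members, grouped by histone type and sorted within it. Filled points are called. H1 lies wholly below 0, and the 3 called rises are HIST1H2BN, HIST1H3E and HIST1H3D.

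The count of rises rests partly on DMSO replicate 3, without which 5 members were called higher, HIST1H2BL and HIST3H2A in addition to the 3 above. Over all 12018 genes kept, 3209 were then called higher, beside 3479 with all 6 libraries. With DMSO replicate 3 as the only control, all 15 called members kept their direction. That fit takes the spread of the control to be that of the TGH libraries. Of the 12 members called lower, some were called in every alternative fit in which they were tested, and so were the 3 called higher. These lower members were HIST1H1C, HIST1H1E, HIST1H2AC, HIST1H2BG, HIST1H2BK, HIST1H3A and HIST2H2AC. HIST1H1E and HIST1H3A passed the filter only through DMSO, and most of the fits kept that filter, so their lasting calls are no added support.

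By genomic cluster, the sums of HIST1 and HIST2 were lower with TGH, both without overlap of the groups. HIST1 held 91.6% of all cluster histone TPM in DMSO. HIST1 went from 490 ± 16.2 to 360 ± 2.15 TPM (ratio 0.733). Of its 30 kept members 11 were lower (36.7%, against 26.3% of all genes kept) and 3 higher (10.0%, against 28.9%). Among these 11, HIST1H1D, HIST1H1E and HIST1H3A passed the filter only through DMSO, so the count supports nothing about the cluster. HIST2 went from 22.9 ± 1.21 to 19.3 ± 1.64 TPM (0.840). HIST2H2AC was its 1 called gene of 4 kept (25.0%, against 55.2% of all genes kept called in either direction). HIST2H2AC itself went from 6.23 ± 0.474 to 2.53 ± 0.224 TPM, so the lower HIST2 sum rests on this gene and is not cluster-wide. HIST3, whose sum is mostly HIST3H2A, went from 20.8 ± 5.05 to 26.7 ± 2.07 TPM with overlapping groups, and neither of its 2 kept members was called. The differences between clusters were not tested.

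Divergent H2A and H2B neighbours did not always move alike. HIST1H2AC and HIST1H2BC were both called lower. HIST1H2BG was called lower at -0.43, and its neighbour HIST1H2AE had the same difference of -0.43 but a wider SE of 0.237 and was not called. HIST2H2AC had -1.03, while HIST2H2BE, which faces away from it across the same promoter, had 4.89, 5.38 and 5.36 TPM in DMSO and 4.92, 4.57 and 4.36 TPM with TGH (-0.14, SE 0.058, adjusted p = 0.0751). No difference between neighbours was tested.

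Several of the abundant members are known to be made as polyadenylated transcripts as well. HIST1H1C, HIST1H2AC, HIST1H2BD, HIST1H2BJ, HIST1H2BK and HIST2H2BE together held 70.0% of the sum in DMSO and 67.5% with TGH. They summed to 375 ± 14.3 and 275 ± 3.06 TPM (ratio 0.734), and the other 52 members to 161 ± 7.79 and 132 ± 1.73 TPM (0.823). The ratio of the 52 is raised by HIST3H2A, which went from 19.3 ± 4.65 to 25.5 ± 1.71 TPM. The difference between these ratios was not tested. Of the 6, 4 were lower and 2 were not called, HIST2H2BE and HIST1H2BD. HIST1H2BD had 29.7, 22.3 and 24.4 TPM in DMSO and 21.0, 21.5 and 22.5 TPM with TGH (-0.21, SE 0.097, adjusted p = 0.102). The 2 testis genes with a value, HIST1H1T and HIST3H3, were under the filter.

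The 21 members under the filter had means from 0.0802 to 0.873 TPM. Together they summed to 10.7 ± 1.02 TPM in DMSO and 7.29 ± 1.23 TPM with TGH, with groups apart. The mean was lower with TGH in 14 of them and higher in 7. HIST1H3I was listed at 0 in 5 of 6 libraries.

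**Figure D4:**
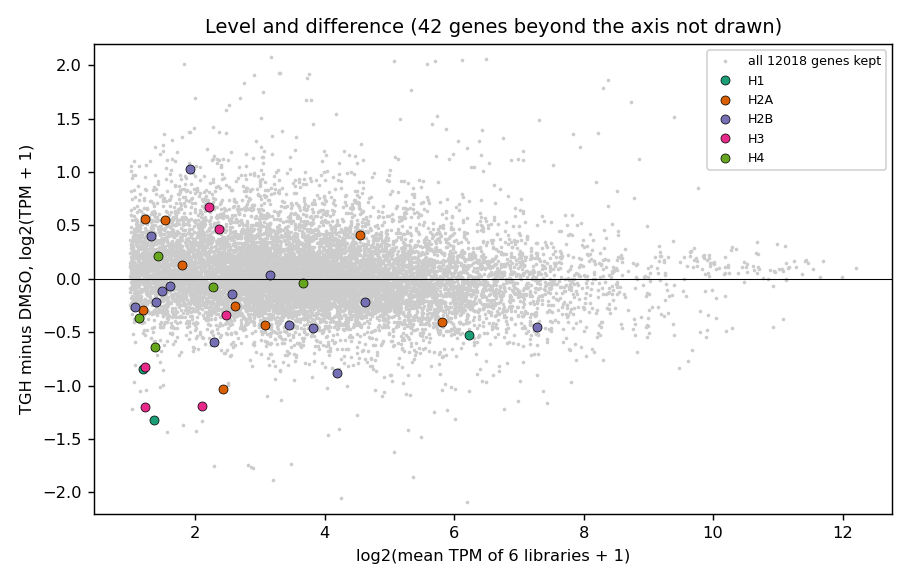
Mean level (x axis, log2 of the mean TPM plus 1) and difference between TGH and DMSO (y axis, log2(TPM + 1)) of all 12018 genes kept, in grey, and of the 37 kept members, coloured by type. 42 genes beyond the y axis are not drawn. Most members have a low level, where 41.2% of all genes kept were called.

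Most members were of low level, and fewer genes of low level were called. Of the 37, 25 had a mean of 1 to 5 TPM, and 36.0% of these were called, against 41.2% of all genes of that level. Of the 7 at 5 to 20 TPM 42.9% were called (all genes 54.3%), and of the 5 at 20 TPM and over 60.0% (all genes 67.5%). Lower calls made up 24.0% of the members at 1 to 5 TPM, against 12.5% of all genes there. Of these 6 lower calls 3 (HIST1H1D, HIST1H1E and HIST1H3A) passed the filter only through DMSO, so that share supports nothing. Lower calls were 3 of 5 at 20 TPM and over, against 38.8%. These shares were not tested.

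The replacement and variant histones, whose genes lie outside the clusters, were mostly called lower. Of 11 kept, 9 fell (81.8%, against 26.3% of all genes kept) and 2, H3F3A and H2AFJ, were not called, with a median of -0.55. H3F3B, which encodes H3.3, had 398, 391 and 393 TPM in DMSO and 229, 236 and 233 TPM with TGH (-0.76, SE 0.018, limma adjusted p = 1.1e-06). Alone it was above the 23.6 TPM listed for all cluster H3 genes in DMSO, whose stem-loop mRNA may not be fully read. H2AFZ, which encodes H2A.Z, went from 495 ± 6.47 to 383 ± 5.88 TPM (-0.37) and H1F0, the H1 of resting cells, from 207 ± 7.15 to 137 ± 3.77 TPM (-0.59). H2AFY, for macroH2A, fell by 0.46. H3F3A was uncertain, at 0.00136, 16.8 and 3.44 TPM in DMSO.

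The factors that carry histones fell as well. Of 24 histone chaperone and import genes, 18 fell (75.0%, against 26.3% of all genes kept), 1 (SPTY2D1) rose by 0.20 and 5 were not called (median -0.30). NASP, which holds soluble H3 and H4, had 67.8, 64.8 and 66.2 TPM in DMSO and 40.99, 39.8 and 39.7 TPM with TGH (-0.71, adjusted p = 6.8e-06). HJURP, the chaperone of the centromeric variant CENPA, fell by 0.81, NPM1, a nucleolar chaperone, by 0.46, and SSRP1, a subunit of FACT, by 0.31.

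Of 16 genes that serve the transcription and 3′ end of histone mRNA, 8 fell, 1 (SYMPK) rose by 0.20 and 7 were not called (median -0.09). The share called in either direction, 56.2%, is near the 55.2% of all genes kept, but the split by direction differs. In this list 8 of 16 were lower, against 26.3% of all genes kept, and 1 of 16 was higher, against 28.9%. SLBP had 42.9, 44.5 and 43.8 TPM in DMSO and 35.2, 35.3 and 32.8 TPM with TGH (-0.34, SE 0.036, adjusted p = 0.00037). NPAT, the coactivator of histone genes, had 5.58 ± 0.407 and 5.37 ± 0.308 TPM and was not called (-0.04, adjusted p = 0.572). SRRT, which links the cap to 3′ end formation, fell by 0.66, CSTF2, a cleavage factor, by 0.26 and NCBP2, a cap-binding subunit, by 0.20. Of 16 genes of decay and export 8 fell, 2 (MIF4GD and ZCCHC6) rose and 6 were not called (median -0.15). The share called in either direction was 62.5%, against 55.2% of all genes kept. Of all genes kept 26.3% were lower and 28.9% higher, so this list too leaned to lower calls. SRSF7 and SRSF3, which help export intronless mRNA, fell by 0.69 and 0.59, UPF1, a helicase of histone mRNA decay, by 0.23, and MIF4GD, a partner of SLBP, rose by 0.32. Without TGH replicate 2 only 4 of this list were lower, and in 9 of the alternatives 1 rather than 2 was higher.

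Genes of S phase, the period in which cluster histones are made, were lower in 25 of 29 (86.2%, against 26.3% of all genes kept), with E2F1, CDC6, RFC4 and POLE not called (median -0.53). The difference was -1.21 for RRM2, which makes deoxynucleotides. CCNA2, cyclin A, fell by 1.04, MCM7, of the replicative helicase, by 0.82 and TK1, thymidine kinase, by 0.66. Their part in the lower histone sum was not tested. No difference between these lists and the cluster histones was tested.

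**Figure D5:**
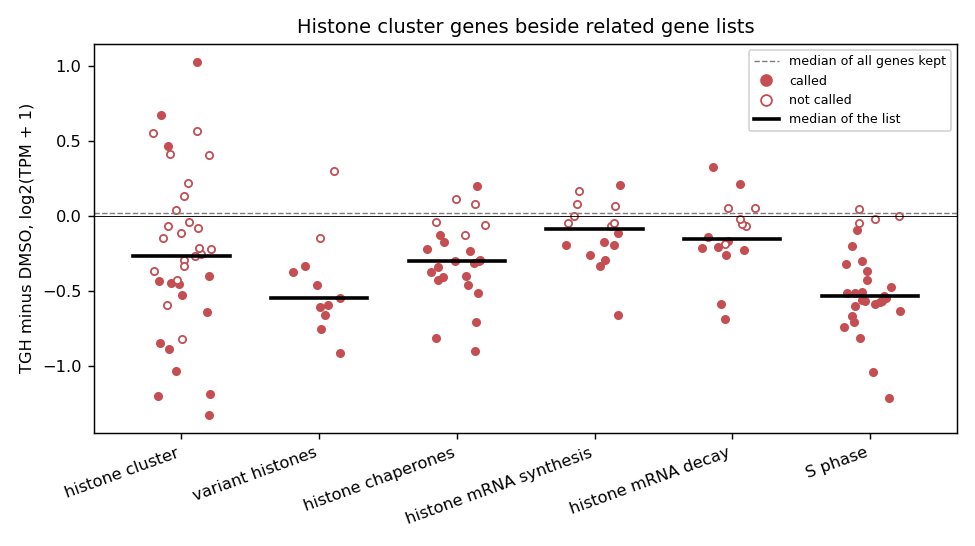
Difference between TGH and DMSO (y axis, log2(TPM + 1)) of the kept members of the histone clusters and of 5 related gene lists (x axis). Filled points are called, black bars are list medians and the dashed line is the median of all genes kept, 0.02. The cluster histones spread from -1.33 to 1.03, around a median of -0.27.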

How the data were processed

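RNA of 6 PC-3 libraries was depleted of ribosomal RNA and sequenced with a strand-keeping kit, per the labels' protocols. The authors deposited log2(TPM + 1) values per gene symbol, and the submitters' processing notes name hg19 as the build. No aligner, quantifier or annotation is given in the sources used here, and depth is unknown. Each column's listed TPM summed to between 50.2% and 51.9% of the total that TPM over every transcript would reach.

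Genes averaging 1 TPM or more were compared with limma 3.58.1 in R 4.3.3 (moderated variances with trend, two-sided, Benjamini-Hochberg). The fit was tested on simulated data. Fold changes on the log2(TPM + 1) scale understate the change of low genes. TPM were summed by histone type, without a test. By the rule for named genes, called members and the highest kept member of each type have per-library values, and each related list gives up to 4 genes by smallest p. HIST3H2A, HIST1H2AD, HIST1H2AK, HIST1H3I, NPAT, H3F3A and the genes named beside a small count have values outside that rule and were chosen after these were seen, while HIST1H2BD and HIST2H2BE belong to the polyadenylated list, which the rule gives whatever its result. Members and lists were chosen with earlier results of these data known. Transcript and promoter sequences came from GENCODE 29 and RefSeq. Alternatives changed the pseudocount, filter, scaling, variance model and libraries. Figures used matplotlib 3.10.9.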

Additional observations from a re-analysis of the deposited data

How the results depend on the processing

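All 15 called members kept their direction in every one of the 17 alternative fits in which they were tested. With a mean of at least 5 TPM required, 12 members were tested, of which 0 were called higher and 6 lower. Of all 8765 genes tested there, 2578 were higher and 2781 lower. Leaving out 1 library gave 3 to 5 members called higher and 8 to 13 called lower. Over all genes kept it gave 2858 to 3535 called higher and 2557 to 3175 called lower. Leaving out the highest member of a type gave a ratio of sums of 0.273 for H1 and 0.982 for H2A. Against DMSO replicate 3 alone the ratio was 0.798 for H2B, 0.840 for H3, 0.708 for H4 and 0.779 for all types. For H1, whose libraries lie very close together, median scaling gave 0.660 and rescaling without small RNA genes 0.661, beside 0.666. Leaving out 1 library kept the ratio between 0.664 and 0.669 for H1, 0.838 and 0.871 for H2A, 0.726 and 0.778 for H2B, 0.722 and 0.818 for H3, and 0.758 and 0.921 for H4.

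Of the uncalled members, 11 turned sign in at least 1 alternative. Against DMSO replicate 3 alone the differences were -0.078 for HIST1H2AD, 0.14 for HIST1H2BF, -0.21 for HIST1H2BL, 0.26 for HIST1H4E, 0.14 for HIST2H2BF and -0.036 for HIST4H4. When 1 library was left out, they ran from -0.00016 to 0.86 for HIST1H2AD, from -0.53 to 0.050 for HIST1H2AG, from -0.053 to 0.42 for HIST1H2AM, from -0.26 to 0.12 for HIST1H2BF and from -0.45 to 0.11 for HIST1H2BO. The range was -0.25 to 0.11 for HIST1H4E, -0.28 to 0.16 for HIST1H4H, -0.011 to 0.11 for HIST2H2BC and -0.20 to 0.17 for HIST2H2BF. Quantile normalization gave -0.018 for HIST2H2BC and called 16 members lower. Over all genes kept it called 3643 lower, beside 3156 in the main fit. The cause was not tested.

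Same-numbered replicates deviated together for number 3 alone (r = 0.0088, 0.054 and 0.23 across genes for numbers 1 to 3), and not every library correlated best with its own number, so the number was not taken as a pairing. With the replicate number as a block 13 members were called lower and 4 higher, and 2958 and 3273 of all genes. Depth is unknown, which leaves the counting error of the low members unmeasured.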

Other observations

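The kept members were also divided by the longest transcript model that GENCODE release 29 lists for each, at 1000 bases. This limit was chosen after the values had been seen, and no test was made. Of the 16 kept members with a model over 1000 bases, which run past the usual histone mRNA, 2 were higher, 2 were lower and 12 were not called. Of the 21 without such a model, 1 was higher, 10 were lower and 10 were not called. Of all genes kept, 28.9% were higher and 26.3% lower. Among these 10 lower members, HIST1H1D, HIST1H1E and HIST1H3A passed the filter only through DMSO, so the counts support no difference between the classes. HIST1H2BN has a model of 4137 bases and HIST1H3E one of 2679 bases. HIST1H3D, the remaining member that rose, has a model of 411 bases that lies within AL031777.3. Among the members that fell, HIST1H2AC has a model of 1668 bases, with 1128 bases after its stem-loop, and HIST1H2BG one of 1534 bases. Models of HIST1H1C and HIST1H2BK hold 642 and 381 bases and leave out any longer form, so this division follows the annotation and not measured transcript ends.

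The order of levels within a type differed widely. In DMSO HIST1H2BK had 178 ± 12.7 TPM and HIST1H2BM, in the same cluster, was under the filter with a mean of 0.305 TPM over the 6 libraries. Of H4, HIST1H4H had 12.0 ± 3.81 TPM in DMSO and HIST1H4A a mean of 0.225 TPM over the 6 libraries.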
